A study of Mus musculus with 23 samples.

Results

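Freshly collected 1-cell mouse embryos (zygotes) labelled Eif4enif1+/- (het) were compared with wild-type (WT) 1-cell embryos. The comparison took every library labelled 1-cell, without culture, in the embryo count table: 3 het and 3 WT libraries, which are 6 of the 23 samples of the series and 6 of the 15 embryo libraries. Both groups carried no treatment, and each library holds poly(A) RNA copied to cDNA and amplified by a full-length kit made for single cells. The other embryo libraries come from het and WT 2-cell embryos and from het embryos arrested at the 1-cell stage, and the remaining samples are germinal vesicle (GV) oocytes, the full-grown oocytes before meiosis resumes. The labels do not say whether a genotype is that of the embryo or of its mother, what the mutant allele removes, the strain, or how many embryos and females went into a library. They also do not say that the replicates came from separate females, so p-values measure only the spread between these libraries, which may be technical. In bulk libraries scaled to their totals, less RNA per embryo and fewer embryos per library cannot be told apart.

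Eif4enif1 codes for 4E-T, which attaches to the cap-binding factor eIF4E, represses translation and gathers mRNA in processing bodies (P-bodies), the cytoplasmic granules of silenced mRNA. In oocytes, 4E-T and related repressors are associated with stored maternal mRNA. A zygote is nearly silent in transcription, so most of its mRNA was made and stored by the oocyte, and this stock is degraded as the embryo passes to its own genome.

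The 3 WT libraries and het library 2 held 13434637 to 21693238 counts, and het libraries 1 and 3 held 5597333 and 7336764. Het libraries 1 and 3 had a ceiling on abundant transcripts. Among the 30301 genes with at least 1 kb of exon, no gene exceeded 2218 counts per kb of exon in them, while the maximum in the other 4 libraries lay between 126511 and 205228 counts per kb. The 100 genes with the most counts took 5.53% to 6.34% of all counts in libraries 1 and 3 and 32.1% to 38.0% in the other 4. Levels below are CPM values, counts scaled to a common library size, after TMM scaling, whose factors were 2.02 and 2.15 in the libraries with the ceiling and 0.797 to 0.897 elsewhere. Counts of calls, the changes of genes ranked in the 1-cell comparison and list medians are therefore given also without het libraries 1 and 3, where the het group is 1 library and the spread is taken from the other groups. Elsewhere the value of library 2 stands beside those of libraries 1 and 3.

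How the het libraries stood against WT varied with abundance. For the 263 genes over 5000 counts per kb in WT, the median log2 ratio to the WT mean was -2.60 in het library 1, 0.01 in het library 2 and -2.95 in het library 3. For the 956 genes at 1000 to 5000 counts per kb, the medians were -1.20, -0.08 and -1.48. At 10 to 50 counts per kb the sign turned, with medians of 0.28, -0.02 and 0.39 over 5263 genes. Het library 2 thus stayed near WT at every level of abundance, while libraries 1 and 3 were low for abundant and slightly high for scarce transcripts. Values of abundant genes in libraries 1 and 3 are given as deposited and support no statement about genotype.

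**Figure D1:**
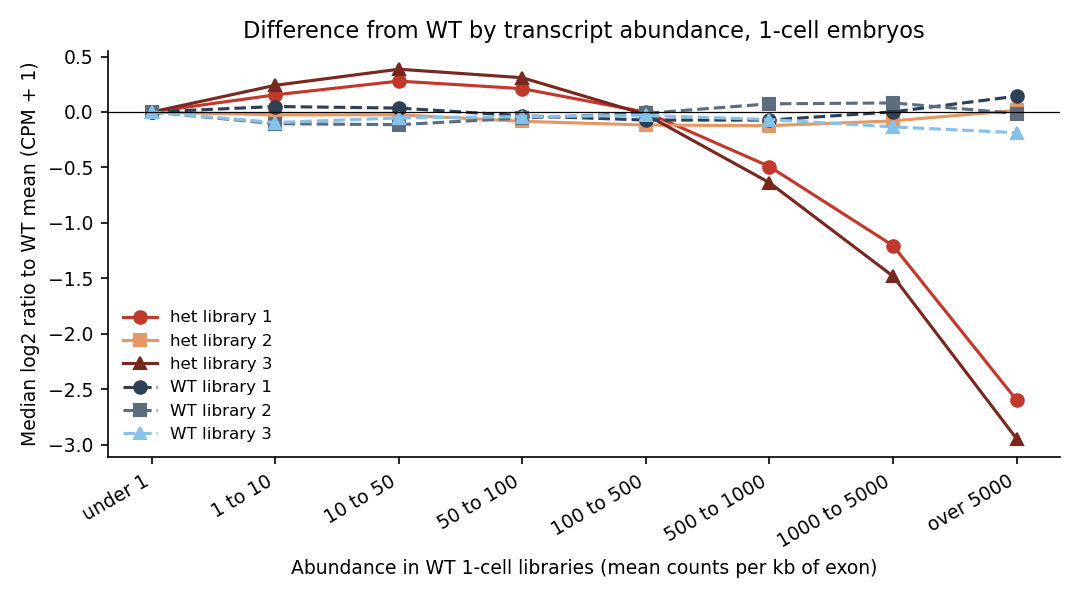
Median log2 ratio of each 1-cell library to the WT mean (CPM + 1; a WT library is set against the mean of the other WT libraries), in classes of WT abundance (counts per kb of exon). Het libraries 1 and 3 bend down to -2.60 and -2.95 in the most abundant class, while het library 2 is at 0.01.

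The libraries carried mRNA that oocytes and zygotes share, so the stage rests on the labels. All 15 oocyte and zygote markers, among them the zona pellucida genes, Gdf9, Bmp15 and Dppa3, had counts in all 6 libraries. Their summed level was 29288 to 37168 CPM in WT, 35150 CPM in het library 2, and 2435 and 1944 CPM in het libraries 1 and 3, the libraries with the ceiling. Of the 23 cumulus and granulosa markers, 8 (among them Amhr2, Foxl2 and Nr5a1) had no count in any library. The sum of the list was 78.7 to 96.3 CPM in the het libraries and 70.4 to 88.8 CPM in WT. Of 15 tested, Nr5a2 and Cyp11a1 (13.3%) were above and 0 below WT in all het libraries, beside 10.2% and 6.08% of all genes. Cyp11a1 had 26, 17 and 39 counts in het and 9, 4 and 0 in WT. The 10 sperm markers summed to 46.0 to 73.4 CPM in the het libraries and 39.3 to 54.3 CPM in WT. Tnp1 and Tnp2 were at 0 in all 6 libraries. Of 6 sperm markers tested, Gapdhs (16.7%) was above and 0 below WT in all het libraries. Gapdhs was at 1.68, 0.538 and 1.78 CPM in the het libraries and 0.480, 0.192 and 0.154 CPM in WT. The 11 oviduct markers summed to 31.4 to 45.7 CPM in the het libraries and 24.9 to 51.8 CPM in WT, with Foxj1 and Cd44 at 0. The 9 blood markers were low, at 2.87 to 11.5 CPM in the het libraries and 0.548 to 4.30 CPM in WT, and het library 1 alone held 25 counts of the globin gene Hba-a1, against 0 in the other het libraries. The marker sums of the het and WT groups overlapped for all 5 lists.

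The Eif4enif1 transcript itself was lower in every het library. It lies on chromosome 11 from 3202392 to 3244588 (mm10). Its level was 72.1, 69.9 and 69.2 CPM in the 3 het libraries and 134, 148 and 178 CPM in the 3 WT libraries. The groups did not overlap, and the het libraries lay within a few CPM of each other, the ceiling notwithstanding. The het mean was 70.4 ± 1.504 CPM and the WT mean 153 ± 22.4 CPM (SD, n = 3 each), a log2 change of -1.12 (standard error, SE, 0.41). In edgeR's quasi-likelihood test the adjusted p over all genes was 1. An exact permutation test over the 6 libraries (two-sided, on log2 CPM) gave p = 0.1, which is the smallest p that 3 against 3 libraries allow. Without het libraries 1 and 3 the change was -1.14 (SE 0.67). In GV oocytes the same transcript was at 87.3 and 96.1 CPM in the het libraries and 217 and 222 CPM in WT, a log2 change of -1.26 that edgeR called (adjusted p = 0.0283). In 2-cell embryos its log2 change was -0.60 (SE 0.41). The test of the difference between the 1-cell and the 2-cell change gave -0.52 (SE 0.58) with an adjusted p of 1 by edgeR.

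**Figure D2:**
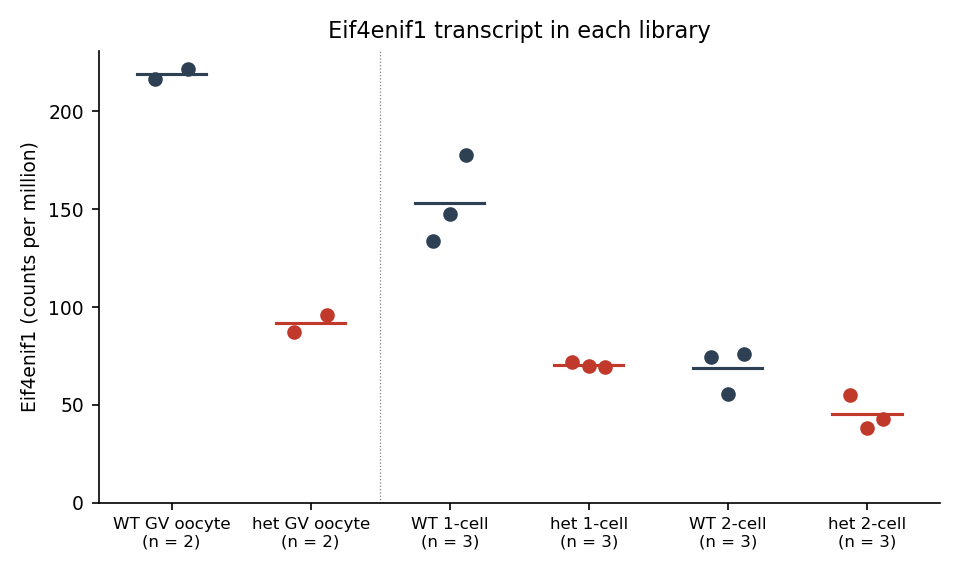
Eif4enif1 level (CPM) in each library, with a line at each group's mean; GV oocytes and embryos come from separate tables, divided by the dotted line. The 3 het 1-cell libraries lie at 69.2 to 72.1 CPM, below the WT libraries at 134 to 178 CPM.

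Across the transcriptome, no gene passed the test between het and WT 1-cell embryos. edgeR tested 23656 genes and called 0 (0%) at an adjusted p under 0.05, while 889 genes (3.76%) had an unadjusted p under 0.05, 532 higher (2.25%) and 357 lower (1.51%) in het. DESeq2 called 78 genes (0.33%) on the same counts, 45 higher (0.19%) and 33 lower (0.139%). Without het libraries 1 and 3, edgeR again called 0 genes (0%), with 268 (1.13%) at an unadjusted p under 0.05. Among the 15850 genes with under 50 counts per kb, far below the ceiling, it also called 0, with 489 (3.09%) at an unadjusted p under 0.05. The 6 1-cell libraries alone gave 0 of 16115 genes by edgeR, with 1929 (12%) at an unadjusted p under 0.05, and quantile normalization with limma gave 0, with 862 (3.64%). The range of the groups was separate for 3841 genes (16.2%): het was above WT in all libraries for 2402 (10.2%) and below for 1439 (6.08%).

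Het library 2 decided the count. Without it, edgeR called 322 genes (1.36%), 5 higher (0.0211%) and 317 lower (1.34%) in het. Of these 317, 301 had over 1000 counts per kb in WT, and their median log2 ratio to the WT mean was -2.54 and -2.85 in the libraries with the ceiling and -0.02 in het library 2. For 159 of these 317, het library 2 lay inside the WT range, beside 13703 of all 23656 genes tested. The 5 genes called higher without library 2 were Ncbp1, Hras, Rrp9, Glb1 and Mlh3, with a median WT abundance of 0.227 counts per kb beside 14.6 over all genes; Glb1 was the highest at 15.1.

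Glb1, Ttll13 and Nt5c3 were among the genes with the smallest p on the higher side. Of the 1457 genes with a mean of 10 CPM or more in a group, separate ranges and a usable symbol, 670 were higher and 787 lower in het. Over all genes with separate ranges the balance was the reverse, 2402 higher and 1439 lower. The 10 CPM minimum left out scarce genes, for which libraries 1 and 3 were slightly high. The 10 with the smallest p in each direction are described here as values, since edgeR's adjusted p was 1 for all 20. Glb1, the lysosomal beta-galactosidase, was at 19.8, 10.7 and 12.2 CPM in the het libraries and 4.11, 1.86 and 2.42 CPM in WT (log2 change 2.34, SE 0.50). Ttll13, a tubulin-polyglutamylating enzyme, was at 74.9, 69.3 and 83.2 CPM in the het libraries and 28.8, 29.8 and 22.4 CPM in WT (log2 change 1.49, SE 0.43). Nt5c3, a pyrimidine nucleotidase, was at 24.2, 24.3 and 26.7 CPM in the het libraries and 11.2, 4.81 and 7.14 CPM in WT (log2 change 1.70, SE 0.48). With libraries 1 and 3 left out the log2 changes were 1.93 for Glb1, 1.36 for Ttll13 and 1.65 for Nt5c3. Every het library, the library without the ceiling included, stood above the highest WT library in these 3 genes, as the choice of genes required.

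Nudt21, Sp1, Guk1 and Gjb2 were also higher in every het library. Nudt21, a subunit of the cleavage factor that selects poly(A) sites, was at 16.002, 14.7 and 24.3 CPM in the het libraries and 4.59, 11.2 and 6.01 CPM in WT. The transcription factor Sp1 was at 14.1, 7.70 and 11.4 CPM in the het libraries and 3.77, 2.57 and 4.93 CPM in WT. Guk1, the guanylate kinase, was at 24.8, 18.8 and 23.1 CPM in the het libraries and 6.44, 9.05 and 9.97 CPM in WT. Gjb2, a connexin of gap junctions, had the highest log2 change of the 10, at 3.75 (SE 1.17). It stood at 14.5, 6.90 and 17.4 CPM in the het libraries and 0.822, 0.642 and 1.39 CPM in WT, and the SE was 0.48 in the fit on the 6 1-cell libraries alone. The remaining genes were Drc1 (an axonemal dynein regulator, log2 change 1.75), Rogdi (1.62) and Tmco6 (2.02). With libraries 1 and 3 left out the log2 changes were 1.01 for Nudt21, 1.03 for Sp1, 1.14 for Guk1, 2.84 for Gjb2, 1.04 for Drc1, 0.82 for Rogdi and 1.56 for Tmco6. In Rogdi, het library 2 at 9.59 CPM was close to WT library 1 at 9.25 CPM.

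On the lower side, where the choice again required separate ranges, the membrane glycoproteins Pdpn and Muc4 and the X-linked gene Ott were low in all het libraries. Pdpn (podoplanin) was at 15.1, 15.3 and 16.7 CPM in the het libraries and 105, 57.4 and 51.7 CPM in WT, a log2 change of -2.19 (SE 0.49). Muc4, a transmembrane mucin, was at 23.2, 14.0 and 18.6 CPM in the het libraries and 68.8, 46.7 and 70.8 CPM in WT, a log2 change of -1.74 (SE 0.46). Ott was at 6.37, 3.94 and 7.16 CPM in the het libraries and 22.3, 17.8 and 16.7 CPM in WT, a log2 change of -1.70 (SE 0.46). Without het libraries 1 and 3 these changes were -2.22, -2.16 and -2.27, and all 3 genes were again among the 6 with the smallest p on the lower side. Ott belongs to a family of near-identical copies, so its reads may be split between them.

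Tnfsf13b, which encodes the B-cell cytokine BAFF, was at 60.1, 74.6 and 56.1 CPM in the het libraries and 160, 126 and 178 CPM in WT, a log2 change of -1.28 (SE 0.36). The homeobox gene Cphx1 was at 52.2, 82.3 and 51.9 CPM in the het libraries and 143, 193 and 201 CPM in WT. Its paralogue Cphx2 was at 101, 142 and 95.5 CPM in the het libraries and 249, 340 and 344 CPM in WT. The Cphx genes are near-identical copies that can share reads, so their values count as uncertain and as related. In all 3 genes, het library 2 was the highest het library and, as the choice required, below every WT library. The log2 changes without het libraries 1 and 3 were -1.06 for Tnfsf13b, -1.13 for Cphx1 and -1.14 for Cphx2.

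The other 4 genes of this direction were Tex30, Fbxw13, Gnrh1 and Sem1. Tex30 was at 90.1, 152 and 73.8 CPM in the het libraries and 324, 332 and 250.3 CPM in WT. The F-box gene Fbxw13 was at 52.7, 95.1 and 52.0 CPM in the het libraries and 179, 303 and 172 CPM in WT. Gnrh1, the precursor of gonadotropin-releasing hormone, was at 46.4, 131 and 39.8 CPM in the het libraries and 219, 238 and 254 CPM in WT. Sem1, a small proteasome subunit, was at 26.7, 37.2 and 24.5 CPM in the het libraries and 47.2, 104 and 104 CPM in WT. Cphx1, Cphx2, Tex30, Fbxw13 and Gnrh1 held 1393 (Cphx1) to 6159 (Gnrh1) counts per kb in WT, in the range of abundance where libraries 1 and 3 had low medians, while Sem1 held 407 and Tnfsf13b 377. Without those libraries the log2 changes were -0.99 for Tex30, -1.20 for Fbxw13, -0.86 for Gnrh1 and -1.20 for Sem1.

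**Figure D3:**
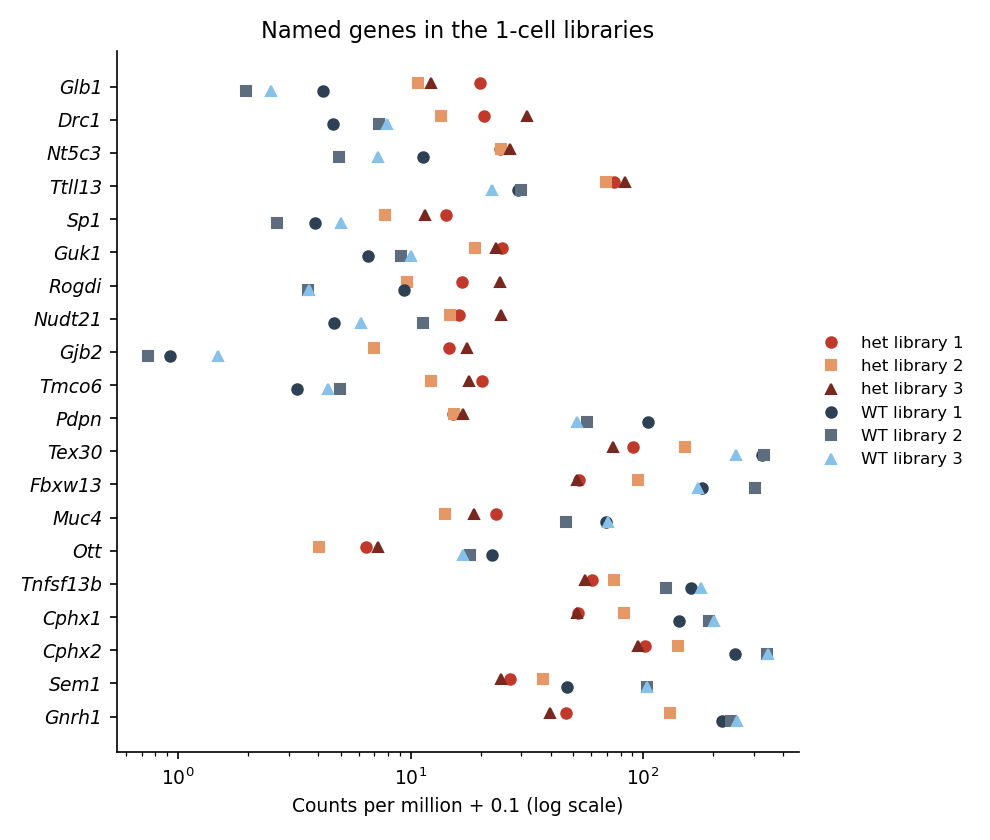
Level (CPM + 0.1, log axis) of the 20 named genes in the 3 het and the 3 WT 1-cell libraries, 1 symbol per library. The upper 10 genes are higher and the lower 10 lower in every het library than in every WT library, which was a condition of their choice.

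Separate ranges were a condition of the choice, so the sign of these 20 genes in het library 2 was fixed in advance and is no check on the ceiling. Without het libraries 1 and 3 their log2 changes ran from 0.82 to 2.84 for those higher and from -2.27 to -0.86 for those lower. A fit on the 6 1-cell libraries alone called none of them, with edgeR's adjusted p from 0.17 to 0.286. DESeq2 called 10 of the 20, beside 0.33% of all genes, but the 20 were chosen by their p in edgeR on the same counts. In GV oocytes, whose libraries were not used to choose these genes, 17 of the 20 had the same sign, beside 51.9% of the 20136 genes in both fits. Pdpn, Muc4 and Ott also passed edgeR's test in oocytes in the same direction, beside 1.57% of those genes, and none of the 20 passed in the opposite direction.

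Ranked without het libraries 1 and 3, the genes higher in het library 2 included Nfkbia and Apaf1. Nfkbia, which encodes the inhibitor that holds NF-kappaB in the cytoplasm, was at 106, 265 and 90.8 CPM in the het libraries and 77.1, 74.2 and 78.8 CPM in WT, so library 2 stood apart from both other het libraries. Apaf1, the scaffold of the apoptosome, was at 50.2, 80.9 and 43.8 CPM in the het libraries and 22.2, 30.02 and 23.3 CPM in WT, a log2 change of 1.21 (SE 0.38) with all 3 libraries and 1.68 (SE 0.51) without libraries 1 and 3. Apaf1 was above WT in all het libraries. The other 4 genes on the higher side were the mitochondrial tRNA genes mt-Tc, mt-Ta, mt-Tn and mt-Tw, of which mt-Tc was at 10.1, 33.1 and 0.888 CPM in the het libraries and 5.82, 9.05 and 10.7 CPM in WT. These transcripts were high in library 2 only, and in library 3 they were below WT.

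The genes lower in library 2 by the same ranking were Ott, Pdpn and Muc4, described above, then Naalad2, Mbtps1 and Myt1. Naalad2, a glutamate carboxypeptidase, was at 15.6, 12.2 and 27.3 CPM in the het libraries and 36.8, 38.5 and 53.6 CPM in WT. Mbtps1, the Golgi protease that cleaves SREBP and ATF6, was at 11.2, 3.05 and 6.28 CPM in the het libraries and 13.1, 17.4 and 34.1 CPM in WT. Myt1, a zinc-finger transcription factor, was at 6.28, 1.25 and 4.06 CPM in the het libraries and 13.4, 10.2 and 15.8 CPM in WT. In these 3 genes library 2 had the lowest level of all 6 libraries, and the ranges of het and WT did not overlap.

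The 8 genes with the most counts per kb in WT zygotes were, in descending order, the pseudogene Gm10925, mt-Atp6, mt-Atp8, Dppa3, Bcl2l10, Obox2, mt-Cytb and H1foo. Dppa3, the maternal factor that protects the maternal genome from demethylation, was at 140, 9453.5 and 105 CPM in the het libraries and 13303, 8976 and 10572 CPM in WT. Bcl2l10, an oocyte member of the BCL2 family, was at 226, 16357 and 168 CPM in the het libraries and 17095, 9901 and 12868 CPM in WT. H1foo, the oocyte linker histone, was at 195, 7745.5 and 143 CPM in the het libraries and 5993, 6111 and 7105 CPM in WT. Library 2 was within or near the WT range in all 3 genes, and libraries 1 and 3 were at the ceiling. Gm10925 is a nuclear copy of mitochondrial sequence with 132.6, 17139 and 95.4 CPM in het, close to mt-Atp6 at 134, 16857 and 96.0 CPM, and reads of the pair may be shared.

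Among the 18 pathway lists, 0 members were called by edgeR, and DESeq2 called 1, the antioxidant gene Prdx4. The median log2 change over a list ran from -0.98 to 0.24, beside 0.11 over all genes tested. Without het libraries 1 and 3 it ran from -0.25 to 0.23, beside 0.00 over all genes. Setting genes with no count in a group at their bounds moved a list's median by 0.07 at most. The shares of all genes set beside the lists below are not matched for abundance. Under 50 counts per kb, 2.21% of genes were below and 10.9% above WT in all het libraries. Most lists had a higher median abundance than all genes (14.6 counts per kb in WT).

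The lists nearest to 4E-T's own function showed small differences. Of the 18 genes of eIF4E and cap binding, 2 were above and 3, Eif4enif1 included, below WT in all het libraries (11.1% and 16.7%, beside 10.2% and 6.08% of all genes). The median log2 change was 0.05, and -0.02 without het libraries 1 and 3. Ncbp1, the large subunit of the nuclear cap-binding complex, was scarce, with 10, 3 and 22 counts in het and 2 counts over the WT libraries. The ratio of its pooled levels was 22.7 (95% exact binomial interval 5.84 to 195, counting error only). Of the 42 P-body and mRNA storage genes, 2 (4.76%) were above and 6 (14.3%) below WT in all het libraries, beside 10.2% and 6.08% of all genes. This list held a median of 149 counts per kb in WT, beside 14.6 over all genes, so these shares are not at like abundance. Lsm5, a subunit of the LSM ring that acts in decapping, was at 35.1, 47.1 and 24.6 CPM in the het libraries and 88.6, 125 and 106 CPM in WT. Lsm5 held 2232 counts per kb in WT, in the range of abundance where libraries 1 and 3 had low medians. Dazl, an RNA-binding protein of germ cells, was at 289, 1380 and 226 CPM in the het libraries and 1859, 1840 and 1533 CPM in WT, within the range of the ceiling. The median of the P-body list was -0.05, and -0.03 without het libraries 1 and 3. Of its 42 members, 11 (26.2%) lay below and 6 (14.3%) above WT in library 2, beside 20.4% and 21.7% of all genes.

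The machinery that removes maternal mRNA held 3 of 39 members (7.69%) above and 6 (15.4%) below WT in all het libraries, beside 10.2% and 6.08% of all genes. This list too was more abundant than all genes, at a median of 97.7 counts per kb in WT beside 14.6. Its median log2 change was -0.13, and -0.15 without het libraries 1 and 3. In library 2 alone, 12 of the 39 (30.8%) lay below WT, beside 20.4% of all genes. Btg2, an adaptor of the CCR4-NOT deadenylase, was at 23.8, 19.9 and 28.9 CPM in the het libraries and 12.2, 9.88 and 7.401 CPM in WT. Cnot1, the scaffold of that complex, was at 34.3, 20.1 and 40.9 CPM in the het libraries and 20.96, 9.62 and 15.9 CPM in WT, so library 2 lay inside the WT range. Btg2 was higher in every het library, with a log2 change of 1.30 (SE 0.52), and 1.02 without het libraries 1 and 3.

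Maternal-effect genes are stored oocyte mRNAs that the embryo needs before its own transcription, and many are abundant. Their median log2 change was -0.47 over 44 genes and 0.06 without het libraries 1 and 3. Kit, the receptor of stem cell factor, was at 53.8, 43.3 and 70.1 CPM in the het libraries and 82.4, 91.1 and 142 CPM in WT, and it was lowest in library 2. Gdf9, the oocyte growth factor, was at 264, 1912 and 192 CPM in the het libraries and 1891, 2513 and 3710 CPM in WT. Library 2 was inside the WT range for Gdf9, while the libraries with the ceiling were far below it.

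Of the 48 genes of 2-cell-stage activation, 46 were tested, with a median WT abundance of 8.37 counts per kb and a median log2 change of 0.00, and 0.01 without het libraries 1 and 3. In all het libraries 6 (13%) were above and 2 (4.35%) below WT, beside 10.2% and 6.08% of all genes. In library 2, 15 (32.6%) were above and 3 (6.52%) below WT, beside 21.7% and 20.4% of all genes. The deubiquitinase copy Usp17ld had 6, 6 and 1 counts in het and 0 in WT, which makes it at least 5.62-fold higher against a floor of 3 counts over the WT group. Pramef6 was at 0, 0.179 and 0.127 CPM in the het libraries and 0.822, 1.41 and 0.822 CPM in WT. Both belong to families of near-identical copies, so their counts are uncertain. A set of 117 genes chosen after the data were seen, with no count in WT oocytes and at least 10 CPM in WT 2-cell embryos, summed to 2.09 to 3.67 CPM in the het zygotes and 0.685 to 3.59 CPM in the WT zygotes, against 6840 to 8403 CPM in WT 2-cell embryos. The WT 2-cell level and the absence from WT oocytes were set by the choice of these genes. Their sums in the zygotes were low in both groups, and the groups overlapped.

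The 13 mRNAs encoded by the mitochondrial genome code for subunits of the respiratory chain and ATP synthase. They were split between the het libraries. Their median log2 ratio to the WT mean was -2.89 in library 1, 0.23 in library 2 and -3.29 in library 3, and no member separated the groups. The median fitted log2 change was -0.98, and 0.23 without libraries 1 and 3. In library 2, 8 of the 13 (61.5%) were above every WT library and 0 below, beside 21.7% and 20.4% of all genes. mt-Atp6, a subunit of ATP synthase, was at 16857 CPM in library 2 against 12021, 8760 and 7370 CPM in WT. The members with the smallest p were mt-Nd6 and mt-Nd5, subunits of complex I, and library 2 lay inside the WT range for both. mt-Nd6 was at 58.8, 183 and 41.0 CPM in the het libraries and 147, 207 and 333 CPM in WT. mt-Nd5 was at 172, 492 and 130 CPM in the het libraries and 490, 523 and 655 CPM in WT. Without libraries 1 and 3 their log2 changes were -0.33 and -0.18. In GV oocytes the median log2 change of the 13 was 1.29, beside -0.05 over all genes. edgeR called 5 of them higher and 0 lower in oocytes, beside 1.41% and 1.14% of all genes. In 2-cell embryos the median of the 13 was 0.69, beside 0.02 over all genes. At the 1-cell stage the higher level rests on library 2, a single library, and the 13 genes held 3108 (mt-Nd3) to 222922 (mt-Atp6) counts per kb in WT, above the ceiling of libraries 1 and 3.

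Nuclear-encoded mitochondrial genes had medians nearer to 0. Of the 78 nuclear-encoded respiratory chain genes, 7 (8.97%) were above and 8 (10.3%) below WT in all het libraries, beside 10.2% and 6.08% of all genes. Their median log2 change was -0.11, and -0.02 without het libraries 1 and 3. Ndufb6, a complex I subunit, was at 39.4, 78.0 and 35.0 CPM in the het libraries and 109, 148 and 114 CPM in WT. Ndufab1, the mitochondrial acyl carrier protein, was at 68.0, 264 and 57.2 CPM in the het libraries and 386, 464 and 405 CPM in WT. Both were lower in every het library, and least so in library 2. Ndufb6 held 3092 and Ndufab1 1004 counts per kb in WT, where libraries 1 and 3 had low medians. The median of the 37 genes of mitochondrial dynamics was 0.04, and -0.10 without het libraries 1 and 3, with 3 (8.11%) above and 2 (5.41%) below WT. Mff, which recruits the fission GTPase to mitochondria, was at 148, 284 and 124 CPM in the het libraries and 444, 422 and 358 CPM in WT.

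Cytosolic ribosomal proteins had the highest list median, 0.24, and 0.21 without het libraries 1 and 3. Of the 81 members, 13 (16%) were above and 4 (4.94%) below WT in all het libraries, beside 10.2% and 6.08% of all genes. In library 2, 28 (34.6%) were above and 6 (7.41%) below WT, beside 21.7% and 20.4% of all genes. The members with the smallest p were scarce. Rpl3 had 5, 16 and 11 counts in het and 0 in WT, at least 13.8-fold higher against the floor of 3 counts over the WT group. Rpsa had 17, 15 and 12 counts in het and 22 over the WT libraries. Ribosomal protein genes have many processed pseudogenes, so reads could be shared, and these counts are uncertain. WT library 3 had the lowest median of all 6 libraries for this list, -0.24, so the spread within WT was as large as the difference between the groups. Of the 37 translation initiation factors, 6 (16.2%) were above and 3 (8.11%) below WT, with a median of 0.00, and 0.07 without het libraries 1 and 3. Eif2b2, a subunit of the eIF2 exchange factor, was at 14.1, 14.2 and 22.95 CPM in the het libraries and 12.2, 8.08 and 4.32 CPM in WT.

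**Figure D4:**
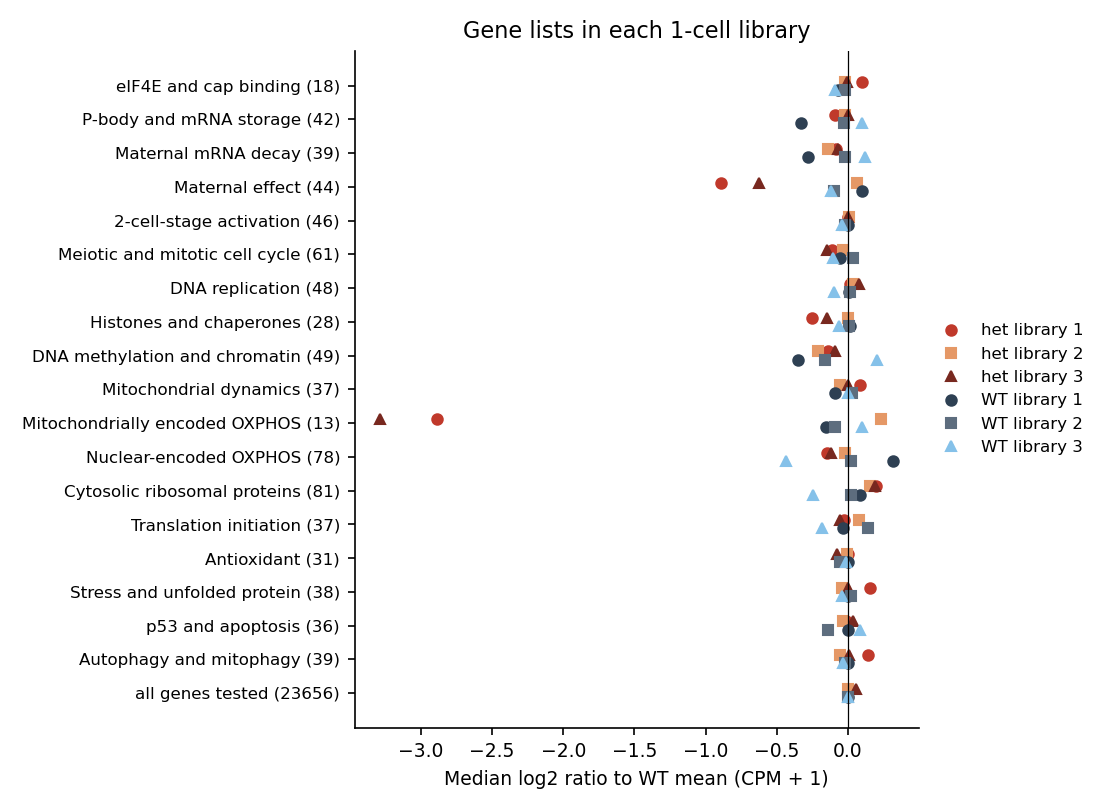
Median log2 ratio to the WT mean (CPM + 1) of each gene list in each 1-cell library, with the number of genes tested in brackets; a WT library is set against the mean of the other WT libraries. Mitochondrially encoded and maternal-effect genes are low in het libraries 1 and 3 but not in library 2, and the other lists lie between -0.44 and 0.32 in all libraries.

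Lists of the cell cycle, of DNA replication and of chromatin had median log2 changes between -0.23 and -0.03, and between -0.25 and 0.03 without het libraries 1 and 3. Aurkc, the meiotic Aurora kinase, was at 158, 662 and 122 CPM in the het libraries and 788, 662 and 880.8 CPM in WT, with library 2 at the WT minimum. Orc4, a subunit of the origin recognition complex, was at 164, 336 and 142 CPM in the het libraries and 515, 537 and 351 CPM in WT. Chaf1a, the large subunit of chromatin assembly factor 1, was at 27.3, 32.5 and 37.3 CPM in the het libraries and 19.7, 23.5 and 14.0 CPM in WT. Asf1b, a histone chaperone, was at 204, 1039 and 153 CPM in the het libraries and 1156, 1119 and 1000 CPM in WT. Chaf1a was above WT in every het library, and Asf1b in library 2 lay inside the WT range. Aurkc, Orc4 and Asf1b held 8527, 1015 and 7668 counts per kb in WT, where libraries 1 and 3 had low medians. In the chromatin list, Kdm4a, a histone demethylase, was at 21.04, 17.7 and 45.8 CPM in the het libraries and 8.36, 20.0 and 11.5 CPM in WT, with overlapping groups. Its paralogue Kdm4c had 0, 0 and 1 counts in the het libraries and 17, 5 and 0 in WT, also with overlapping groups.

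Stress, apoptosis and autophagy genes were mixed. Of the 38 stress and unfolded-protein genes, 2 (5.26%) were above and 7 (18.4%) below WT in all het libraries, beside 10.2% and 6.08% of all genes. The list median was above 0 all the same, at 0.17, and it was -0.06 without het libraries 1 and 3. Hsp90b1, the endoplasmic reticulum chaperone GRP94, was at 72.6, 87.2 and 63.8 CPM in the het libraries and 153, 155 and 128 CPM in WT. Hspe1, the mitochondrial co-chaperonin, was at 52.2, 102 and 43.6 CPM in the het libraries and 110, 155 and 130 CPM in WT. Hspe1 held 1482 counts per kb in WT, where libraries 1 and 3 had low medians. Of 36 tested genes of p53 and apoptosis, 1 was above WT, which was Apaf1, and 1, Birc3, below (2.78% each), with a median of 0.02, and -0.06 without het libraries 1 and 3. Zmat3, a p53 target, had 0 counts in het and 21 in WT, none of them in WT library 2. Of the 39 autophagy and mitophagy genes, 4 (10.3%) were above and 8 (20.5%) below WT, beside the same 10.2% and 6.08%. Their median was 0.12, and -0.07 without het libraries 1 and 3. Map1lc3a, an LC3 protein of the autophagosome membrane, was at 6.98, 7.88 and 14.4 CPM in the het libraries and 4.45, 2.82 and 1.80 CPM in WT. Wipi2, which acts at the forming autophagosome, was at 7.07, 9.23 and 4.50 CPM in the het libraries and 1.58, 2.37 and 1.70 CPM in WT. Both were higher in every het library, at low levels.

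Among 31 tested antioxidant genes, 2 were above and 2 below WT in all het libraries (6.45% each), beside 10.2% and 6.08% of all genes. The list median was 0.03, and -0.01 without het libraries 1 and 3. Prdx4, a peroxiredoxin of the endoplasmic reticulum, had 4, 4 and 29 counts in het and 0 in WT, at least 16.01-fold higher against the floor of 3 counts over the WT group. Library 3 held most of these counts. Gstp1, a glutathione transferase, was at 26.3, 36.6 and 26.1 CPM in the het libraries and 47.7, 59.9 and 59.4 CPM in WT, a log2 change of -0.91 (SE 0.34).

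A further question was whether the genes that differ between het and WT oocytes differ in the zygote as well. The oocyte libraries share no sample with the embryo libraries, so this choice of genes did not use the 1-cell values. In the GV transcriptome, edgeR called 317 genes higher (1.41%) and 255 lower (1.14%) in het of 22409 tested, and 286 and 243 of these were tested in the embryos. Of the 243 genes lower in het oocytes, 148 were lower and 95 higher in het zygotes, and 60.9% had the oocyte's sign, beside 40.1% of all genes with a negative sign. Their median log2 change in zygotes was -0.19, beside 0.11 over all genes. Of these, 48 (19.8%) were below WT in all het libraries, beside 6.08% of all genes, and 11 (4.53%) were above, beside 10.2%. The count was smaller among the 143 of them under 50 counts per kb, where 13 (9.09%) were below and 9 (6.29%) above, beside 2.21% and 10.9% of all genes under that limit. With het oocyte library 1 left out of the choice, 66 genes were called lower in oocytes and tested in the embryos, of which 9 were below and 9 above WT (13.6% each). In library 2 alone, 95 (39.1%) were below and 28 above WT, beside 20.4% and 21.7% of all genes. Without het libraries 1 and 3 the median was -0.53, beside 0.00 over all genes, and 72.0% had the oocyte's sign, beside 54.6%.

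For the 286 genes higher in het oocytes the median equalled that of all genes once het libraries 1 and 3 were left out, while the share with the oocyte's sign stayed higher. Of these, 169 were higher and 94 lower in het zygotes, and 36 (12.6%) were above WT in all het libraries, beside 10.2% of all genes, while 8 (2.80%) were below, beside 6.08%. Their median log2 change was 0.21 with all 3 het libraries and 0.00 without libraries 1 and 3, beside 0.11 and 0.00 over all genes. Of those with a change other than 0, 64.3% had the oocyte's sign with all 3 het libraries, beside 59.9% of all such genes. Without libraries 1 and 3 it was 54.7%, beside 45.4%. In library 2, 81 (28.3%) were above and 30 (10.5%) below WT, beside 21.7% and 20.4% of all genes.

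Nupr1, Rgcc, Scd2 and S100a10 led the genes higher in het oocytes, and none exceeded 1.59 CPM in any zygote library, so these transcripts were near 0 in all zygotes. Nupr1, a stress-induced chromatin protein, was at 73.8 and 51.3 CPM in the het libraries and 4.38 and 5.01 CPM in WT oocytes. On the lower side, Muc4 was at 5.001 and 3.84 CPM in the het libraries and 26.8 and 28.7 CPM in WT oocytes, and stood lower in all het zygote libraries too, as given above. Ptpre, a receptor-type tyrosine phosphatase, was at 75.3 and 87.8 CPM in the het libraries and 250.05 and 249.7 CPM in WT oocytes, and at 66.5, 129 and 61.4 CPM in the het libraries and 194, 202 and 199 CPM in WT zygotes. Cyp2c29, a cytochrome P450, was at 0.884, 3.67 and 1.14 CPM in the het libraries and 13.9, 7.51 and 2.52 CPM in WT zygotes, and Kcnmb3, a potassium channel subunit, overlapped widely between the groups.

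The following examples with separate ranges in the zygote were chosen after their values were seen. Csmd3, a large membrane protein with CUB and sushi domains, was at 60.7, 51.4 and 60.5 CPM in the het libraries and 144, 134 and 116 CPM in WT zygotes. Tmem171 was at 71.2, 68.3 and 60.4 CPM in the het libraries and 167, 127 and 186 CPM in WT zygotes. Cyp4v3, a fatty acid hydroxylase of the P450 family, was at 11.0, 4.93 and 2.92 CPM in the het libraries and 46.2, 21.6 and 31.2 CPM in WT zygotes. Their log2 changes in oocytes were -1.36, -1.58 and -3.62. In the other direction, Slc49a4 was at 48.0, 86.6 and 51.0 CPM in the het libraries and 14.8, 27.8 and 28.0 CPM in WT zygotes, and its log2 change in oocytes was 1.58. Fmr1, the RNA-binding translational regulator of fragile X syndrome, was at 15.8, 13.2 and 15.2 CPM in the het libraries and 4.18, 8.53 and 11.7 CPM in WT zygotes, with a log2 change in oocytes of 2.46.

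**Figure D5:**
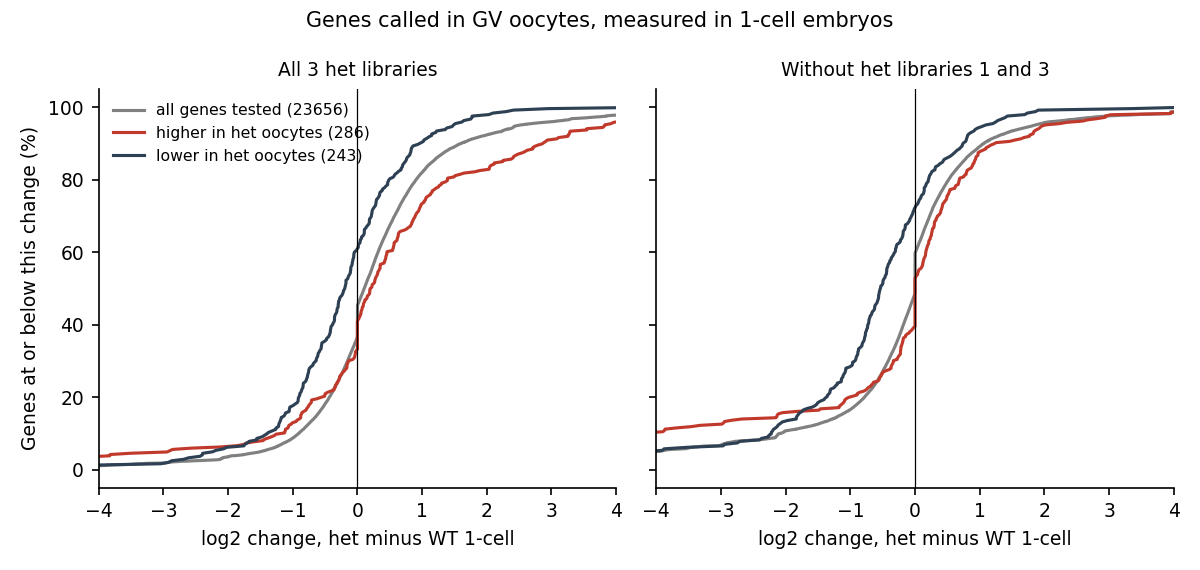
Cumulative percentage of genes by their log2 change between het and WT 1-cell embryos, with all 3 het libraries and without libraries 1 and 3, for all genes tested and for the genes called higher or lower in het GV oocytes. The curve of the 243 genes lower in het oocytes lies to the left of all genes in both panels (medians -0.19 and -0.53 against 0.11 and 0.00).

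The difference between genotypes was also compared between the 1-cell and the 2-cell stage, in the same fit. edgeR called 1 of 23656 genes (0.00423%), with 1049 (4.43%) at an unadjusted p under 0.05. The call was Btg1-ps1, a gene outside the naming rule that is named because it was the only call. At the 1-cell stage it was at 32.7, 16.8 and 20.5 CPM in the het libraries and 32.5, 30.02 and 30.3 CPM in WT. At the 2-cell stage it was at 1.47, 2.53 and 2.37 CPM in the het libraries and had no count in WT, at least 69.4-fold higher in het against a floor of 3 counts over the WT group. Its sequence resembles that of Btg1, so reads may be shared. The call was lost without het libraries 1 and 3.

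Rrp9, Ncbp1 and Prkcz had the smallest p among the genes whose het-minus-WT difference was greater at the 1-cell stage, beside Abhd18. Rrp9, a protein of the small nucleolar ribonucleoprotein that processes ribosomal RNA, had 17, 13 and 44 counts in het and 2 over the WT zygote libraries. The ratio of its pooled levels was 48.0 (95% interval 12.8 to 404, counting error only). Prkcz, an atypical protein kinase C, had 12, 12 and 13 counts in het and 1 over the WT zygote libraries, a ratio of 48.0 (8.10 to 1947). At the 2-cell stage Rrp9 was at 48.4, 29.9 and 56.4 CPM in the het libraries and 70.5, 76.6 and 49.5 CPM in WT. In the zygotes, Rrp9 was at 1.503, 1.16 and 2.79 CPM in het, far below its 2-cell level. Abhd18 differed in the 2-cell embryos instead, at 5.26, 9.20 and 8.08 CPM in the het libraries and 26.0, 30.5 and 26.9 CPM in WT, while its zygote groups overlapped.

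With the opposite sign stood Prl8a2, Mfap2, Gstm5 and Fbxw13. Gstm5, a glutathione transferase, was at 93.4, 341 and 72.7 CPM in the het libraries and 346, 338 and 400.4 CPM in WT zygotes, so library 2 matched WT, and it was at 305, 248 and 160 CPM in the het libraries and 48.3, 59.2 and 107 CPM in WT 2-cell embryos. Prl8a2, a prolactin-family hormone, was at 131, 106 and 72.9 CPM in the het libraries and 17.1, 22.5 and 35.9 CPM in WT 2-cell embryos, and at 73.6, 149 and 59.3 CPM in the het libraries and 168, 178 and 162 CPM in WT zygotes. Mfap2, a microfibril protein, was at 130, 339 and 99.5 CPM in the het libraries and 311, 381 and 448 CPM in WT zygotes. At the 1-cell stage these 3 genes held 2972 (Prl8a2) to 5287 (Mfap2) counts per kb in WT, in the range of the ceiling, and without het libraries 1 and 3 their 1-cell log2 changes were -0.09 for Gstm5, -0.19 for Prl8a2 and -0.17 for Mfap2.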

How the data were processed

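The authors deposited raw read counts per gene. Per the submitters' processing notes, the tools were Trim Galore 0.6.4, HISAT2 2.1.0 and featureCounts 1.6.5 with the mm10 genome; the sources used here do not give the annotation release, the strand setting or the treatment of multi-mapping reads. Of the 56196 genes, 28 symbols had been turned into dates, and 27 were restored from the gene IDs. Exon lengths and coordinates came from GENCODE M21. The deposited counts of all 15 embryo libraries (5 groups) were fitted with edgeR 4.0.16 (R 4.3.3): filterByExpr, TMM, quasi-likelihood test, Benjamini-Hochberg adjustment, calls at an adjusted p under 0.05. The 8 GV libraries were fitted separately. The fit was tested on simulated data. DESeq2 1.42.0 and limma 3.58.1 served as alternatives. CPM values use the TMM-scaled library size and were computed here from the deposited counts. Log2 ratios of single libraries used a pseudocount of 1 CPM. Named genes were those with at least 10 CPM in a group, separate ranges and the smallest p (10 per direction, and 6 without het libraries 1 and 3), the 8 most abundant, the 2 members of each list with the smallest p, and 4 per direction for the 2-cell and oocyte comparisons; some list members are not described. The comparison, the lists and these rules were chosen with earlier results of these data known. Replicate numbers did not pair the libraries (see the closing section).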

Additional observations from a re-analysis of the deposited data

Results flagged for a closer look

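The het-minus-WT difference of Btg1-ps1 was not the same at the 1-cell and the 2-cell stage, by the test of the difference itself (edgeR, adjusted p = 0.0105). The pooled log2 change was -0.42 at the 1-cell stage and at least 6.12 at the 2-cell stage, where WT had no count, so the difference between the stages was -6.54 or beyond on the log2 scale with a floor of 3 counts. All 3 het 2-cell libraries held counts (30, 64 and 47) and none of the 3 WT 2-cell libraries did.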

How the results depend on the processing

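The 0 calls of the 1-cell comparison held with RLE size factors, with no filter, in the 6 1-cell libraries alone, with quantile normalization in limma, and in the restrictions around the ceiling. DESeq2 called 78, and leaving out each library in turn gave 0 to 322, the highest without het library 2. For the 1-cell against the 2-cell difference, the 1 call became 73 with DESeq2 and 0 without het libraries 1 and 3, with only genes under 50 counts per kb, with both restrictions together (added after the data were seen) and with quantile normalization; single left-out libraries gave 0 to 212, namely 212 without het 1-cell library 2, 0 without het 1-cell library 3, and 2 without het 2-cell library 1 or WT 2-cell library 3. With the replicate number as a replicate block there were 0 calls in both comparisons, and Eif4enif1 was at -1.13; same-numbered libraries correlated at -0.20, 0.11 and 0.12 over 7568 genes, so the numbers were not taken as pairs. Eif4enif1 kept its sign throughout, from -1.29 to -1.07 with single libraries left out and -0.75 with quantile normalization. The median of genes lower in het oocytes was -0.53 without het libraries 1 and 3, -0.42 under 50 counts per kb, -0.53 with both, and -0.92 to -0.068 with single libraries left out (-0.92 and -0.85 without the second het or WT oocyte library). The median of genes higher in het oocytes was 0.00 in those 3 restrictions, 0.068 with quantile normalization, and 0.045 to 0.30 with single libraries left out. With quantile normalization and without het library 2, mt-Tc turned to -0.31 and -0.76, mt-Ta to -0.036 and -1.003, mt-Tn to -0.18 and -0.87, and mt-Tw to -0.14 and -1.19; with single libraries left out they reached 1.32, 1.32, 1.27 and 0.97. Of 391 values of the 29 genes named in the 1-cell comparison, 370 kept sign and side of the threshold and 13 passed it. Of 320 list medians, 160 moved. The ceiling and the low counts of scarce genes limit what these 6 libraries can show; causes were not tested.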
